A study of Medicago ruthenica with 9 samples.

Results

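The miRNAs described here are those of 8 families taken as legume families, with precursors annotated in Medicago truncatula, that the study names: miR2592, miR2603, miR2606, miR5230, miR5232, miR5282, miR5284 and miR5299. Membership was decided by the family number in the miRNA name. The study names these families in its lists of changed miRNAs and of miRNA-target pairs, which rest in part on these same values. The counts of changed members given below are therefore not independent of the choice of families. The table of the study holds 595 names, of which 41 were members, and these 41 names stood for 37 distinct sequences. By family, miR2592 had 3 names, miR2603 had 7, miR2606 had 13, miR5230 had 7, miR5232 had 1, miR5282 had 2, miR5284 had 5 and miR5299 had 3. Whether the families are absent outside legumes was not tested.

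Small RNA was sequenced from leaves of Medicago ruthenica, a perennial forage legume, from plants whose treatments began at 4 weeks of age and that grew 8 to a pot. Rewatered plants (RW) went 15 days without water, were soaked, and were sampled 2 days later. Drought-stressed plants (DS) were sampled at the end of the same 15 days, when relative soil moisture stood at 20%, and control plants (CK) had water every 3 days and more than 80% soil moisture. Each group had 3 libraries from biological replicates of whole leaves, so a change in the mix of leaf cells and a change within cells cannot be told apart. RW plants were also 2 days older than the plants of the other groups when sampled.

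Plant miRNAs are cut from hairpin precursors by Dicer-like enzymes and guide Argonaute proteins to complementary transcripts, which are usually cleaved. Canonical plant miRNAs are 21 nt long, whereas small RNAs of 24 nt are typically made by another Dicer-like enzyme from repeats and transposons and direct DNA methylation. Families found in few related species are usually weakly expressed beside the deeply conserved ones, and their precursors are often close to inverted repeats. No target was assigned to any member here, because targets were not analysed.

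All 41 names carried the prefix mtr, for precursors of the relative Medicago truncatula. Only 6 names were annotated mature miRNAs (miR), and 35 were arms predicted from a known precursor (MIR, with p5 or p3 for the arm). In the suffixes, L and R give bases gained or lost at the ends, and ss gives the number of substitutions against the precursor, each with its position and bases. The sequences on which the comparisons turn follow, 5′ to 3′, with bases 2 to 8 (the seed) in capitals.
mtr-MIR2592bj-p3_2ss12TC19AT: aTTCCCACtgtccctgtct
mtr-MIR2592ay-p5_2ss6AG17CG: gAGTCGGGttgtttggga
mtr-MIR2592ae-p5_1ss17TA: tTTGAATTacctcattac
mtr-MIR2603-p3_2ss9AC17AC: gTCCCTGCcctttgtaca
mtr-MIR5230-p3_2ss7TG19AG: aTGGTTGAagatattggagac
mtr-MIR5230-p3_1ss3AG: aAGCATTGgggaatctcttgc
mtr-miR5232: tACATGTCgctctcacctgaa
mtr-MIR5282-p5_1ss6TC: aAAATCCCtcacaaattccttggt
mtr-MIR5282-p3: aTTTCATGttttccctcactaaat
mtr-miR5284a_1ss9AT: gAGGGACCtaaagtggaagaatct
mtr-miR5284a_1ss11AT: gAGGGACCaatagtggaagaatct
The 3 miR2592 members had no seed in common, and the pair named miR5284a shared the seed AGGGACC. The miR2592 sequences were 18 or 19 nt long, shorter than a canonical miRNA, as was mtr-MIR2603-p3_2ss9AC17AC.

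Other members were windows of one another or lay on opposite strands of the same stretch. The next sequences show this, with the stretch that each pair has in common, or that is the reverse complement of its partner, in capitals.
mtr-MIR2603-p5_1ss24AG: ATTGGTCCCTGCACTTTGTAAAAg
mtr-MIR2603-p5_1ss15AG: TTTTACAAAGTGCAGGGACCAATt
mtr-MIR2606a-p5_1: AATTCCTTAGGTGCTTTTCgtatg
mtr-MIR2606a-p3_1ss6AG: GAAAAGCACCTAAGGAATTgtacc
mtr-MIR5299-p5_1ss5AT: aatGTTTCATTGGTATTGTAAAGC
mtr-MIR5299-p5_1ss2AT: GTTTCATTGGTATTGTAAAGCgac
The miR2603 pair was complementary over 23 bases and the miR2606a pair over 19 bases, whereas the miR5299 pair read the same strand with 21 bases in common. mtr-miR5299_L+1R-1 shared 23 bases with mtr-MIR5299-p5_1ss2AT on the same strand. mtr-MIR2606a-p3_1ss6AG lay outside the rule for named miRNAs and was chosen after its values were seen. No assembled transcript was given for 3 names, among them mtr-miR5232 and mtr-miR5284a_1ss9AT. The other names were placed on 27 assembled transcripts, of which 12 carried 2 or more member names. Both sequences of the miR2603 pair and of the miR2606a pair stood on 1 transcript each. Members are therefore not independent of one another.

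Of the 41 names, 28 were 24 nt long, 7 were 21 nt, 2 were 22 nt, 1 was 19 nt and 3 were 18 nt. Over distinct sequences, 26 of 37 members (70.3%) and 217 of 506 other sequences (42.9%) were 24 nt long. An A stood first in 17 of the 37 member sequences, a T in 11, a G in 9 and a C in none, against 177, 232, 36 and 61 of the 506 other sequences. Among sequences of 24 nt alone, A stood first in 13 of 26 members (50%) and in 135 of 217 others (62.2%). There G stood first in 7 members (26.9%) and in 19 others (8.76%). The median GC content over all lengths was 38.1% in members and 45.8% in the others. The heptamer GGTCCCT, read on either strand, occurred in 9 of 37 member sequences, namely in 5 of 6 of miR2603 and 4 of 5 of miR5284, and in 13 of 506 other sequences (2.57%). The octamer CACCTAAG, also read on either strand, occurred in 5 of 12 miR2606 sequences and in none of the 506 others. Both motifs were picked after the sequences had been read, so these counts only describe them.

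The deposited values are normalized counts, that is, reads multiplied by 1 factor per library, and they summed to between 1237467 and 1718279 per library. The members together held 0.184 ± 0.0421% of the listed values in RW, 0.197 ± 0.0301% in DS and 0.209 ± 0.0403% in CK (SD, n = 3 each). Every name entered these shares, so names that share a sequence or have identical values count more than once in them. These shares differed by less than the SD within a group. The lowest value that a library lists above 0 differed between groups, at 2.30 to 3.09 in RW, 3.94 to 4.21 in DS and 0.652 to 1.55 in CK, and rarer miRNAs are listed at 0. Member names above 0 numbered 35, 25 and 27 in the RW libraries, 25, 24 and 18 in DS and 36, 30 and 31 in CK. The families miR5368, miR2916, miR6300 and miR3630, taken from general knowledge as likely fragments of rRNA or tRNA and not checked against a reference here, held 1.80 to 2.35% of the listed values in RW, 1.08 to 2.28% in DS and 0.482 to 0.609% in CK. Names of 18 or 19 nt held 0.811 to 0.882% in RW, 0.528 to 1.31% in DS and 0.234 to 0.339% in CK. The third DS library had the highest values of DS on both measures.

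**Figure D1:**
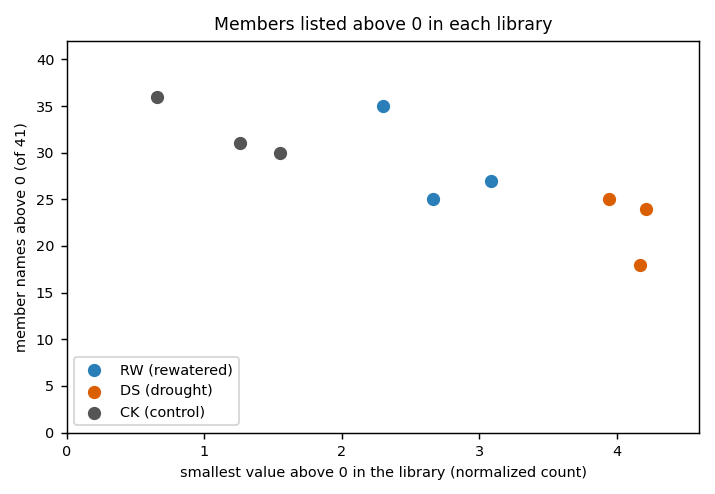
Number of member names above 0 (y axis, of 41) against the smallest value above 0 that the library lists (x axis, normalized count), with 1 point per library. The DS libraries, with smallest values of 3.94 to 4.21, list 18 to 25 members, and the CK libraries, with 0.652 to 1.55, list 30 to 36.

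Only 15 members were above 0 in all 9 libraries, and 6 were above 0 in 1 or 2. All DS libraries listed 10 members at 0, of which 2 were above 0 in every CK library, whereas 4 members were at 0 in all RW libraries and 3 in all CK libraries. For the test, a miRNA had to reach 5 in 3 or more libraries, which 30 members and 339 names of the whole table met. The 11 untested members reached at most 13.9. The mean over the 9 libraries ran from 0.232 to 1126 normalized counts among members, with mtr-miR5232 at the top.

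**Figure D2:**
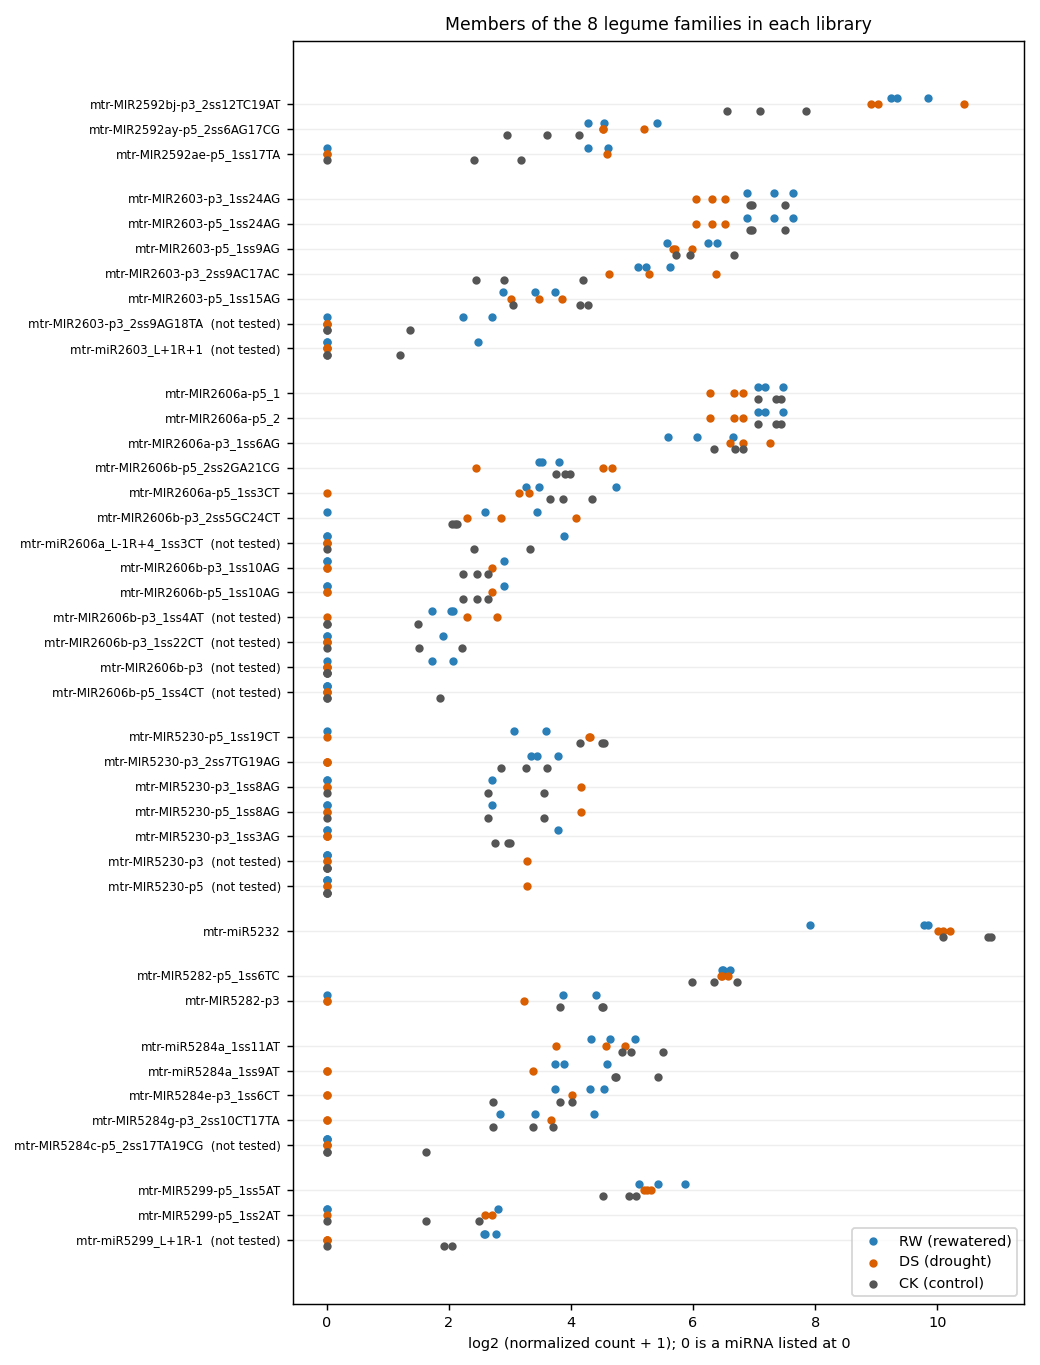
log2 (normalized count + 1) of each of the 41 members (rows, grouped by family) in each library, with RW in blue, DS in orange and CK in grey, and values listed at 0 on the left edge. mtr-miR5232 and mtr-MIR2592bj-p3_2ss12TC19AT lie furthest to the right, and 15 members have all 9 points above 0.

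Each member was then compared between groups with limma on log2 (value + 1), fitted over all 339 tested names, with p-values adjusted by Benjamini-Hochberg and a threshold of 0.05. In DS vs. CK, 3 of 30 members passed, 1 higher and 2 lower in DS, beside 5.31% of all tested names (18 of 339, with 2.06% higher and 3.24% lower). In RW vs. CK, 1 member passed and was higher in RW, beside 5.31% of all tested names (18 of 339, with 2.95% higher and 2.36% lower). In RW vs. DS, 1 member passed and was higher in RW, beside 2.36% of all tested names (8 of 339, with 1.47% higher and 0.885% lower). At an unadjusted limma p under 0.05, 11 of the 30 members differed in DS vs. CK, 4 in RW vs. CK and 6 in RW vs. DS, beside 19.5%, 15.6% and 14.2% of all tested names. A 2-group test after the study's methods, run here with unequal variances, unadjusted and over all 41 names, called 6, 4 and 5 members, beside 5.55%, 6.72% and 3.53% of all 595 names. The changed members were mtr-MIR2592bj-p3_2ss12TC19AT, mtr-MIR5230-p3_2ss7TG19AG and mtr-miR5284a_1ss9AT. The count for DS vs. CK was 0 without the first or the second CK library, 1 without the third, and 5 without the second DS library. Over all tested names, 0, 2, 5 and 15 passed in these 4 fits, against 18 with all libraries. The count for RW vs. CK was 0 without the second or the third RW library or the first or second CK library. It was 2 without the third DS library. Over all tested names, 8, 10, 5, 6 and 21 passed in these fits, against 18 with all libraries. That for RW vs. DS was 0 without any one of the RW libraries, 2 without the first DS library and 3 without the second. Over all tested names, 0, 0, 4, 14 and 10 passed in these fits, against 8 with all libraries.

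The median log2 fold change of the tested members was -0.69 in DS vs. CK, -0.10 in RW vs. CK and 0.14 in RW vs. DS, beside -0.36, -0.11 and 0.16 over all tested names. Without the names that 1 of the groups lists at 0 throughout, 2 of them members in DS vs. CK and again 2 in RW vs. DS, the members' medians were -0.68 and 0.06, beside -0.32 and 0.13 over all names. In DS vs. CK, the libraries of the groups did not overlap for 14 of 30 members, 5 higher and 9 lower in DS, beside 28.0% of all tested names (9.73% higher and 18.3% lower). In RW vs. CK this held for 7 members, 4 higher and 3 lower in RW, beside 21.2% (10.3% higher and 10.9% lower). In RW vs. DS it held for 7 members, 6 higher and 1 lower in RW, beside 15.3% (9.14% higher and 6.19% lower). Some names share a sequence or have identical values, and with such names counted once 26 members were tested. Of these, 3 passed limma in DS vs. CK, 1 in RW vs. CK and 1 in RW vs. DS. An unadjusted p under 0.05 was reached by 9, 4 and 5, and 12, 7 and 5 did not overlap between groups. Over all names counted in the same way, 305 were tested and 17, 17 and 8 passed limma. Among those 305, 62, 50 and 45 had an unadjusted p under 0.05, and 85, 67 and 48 did not overlap. Among the larger Medicago families miR2586, miR2608, miR5205, miR5249 and miR5281, 29 of 83 names were tested and none passed in any comparison, with 0 names in DS vs. CK, 0 in RW vs. CK and 2 in RW vs. DS at an unadjusted limma p under 0.05 and 2, 2 and 0 by the methods' test. Their median log2 fold changes were -0.70 in DS vs. CK, 0.37 in RW vs. CK and 0.84 in RW vs. DS. Of the families that target disease-resistance genes or trigger phased siRNAs (miR1507, miR1509, miR1510, miR2109, miR2118), 9 of 13 names were tested, and 1 passed, lower in DS than in CK.

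**Figure D3:**
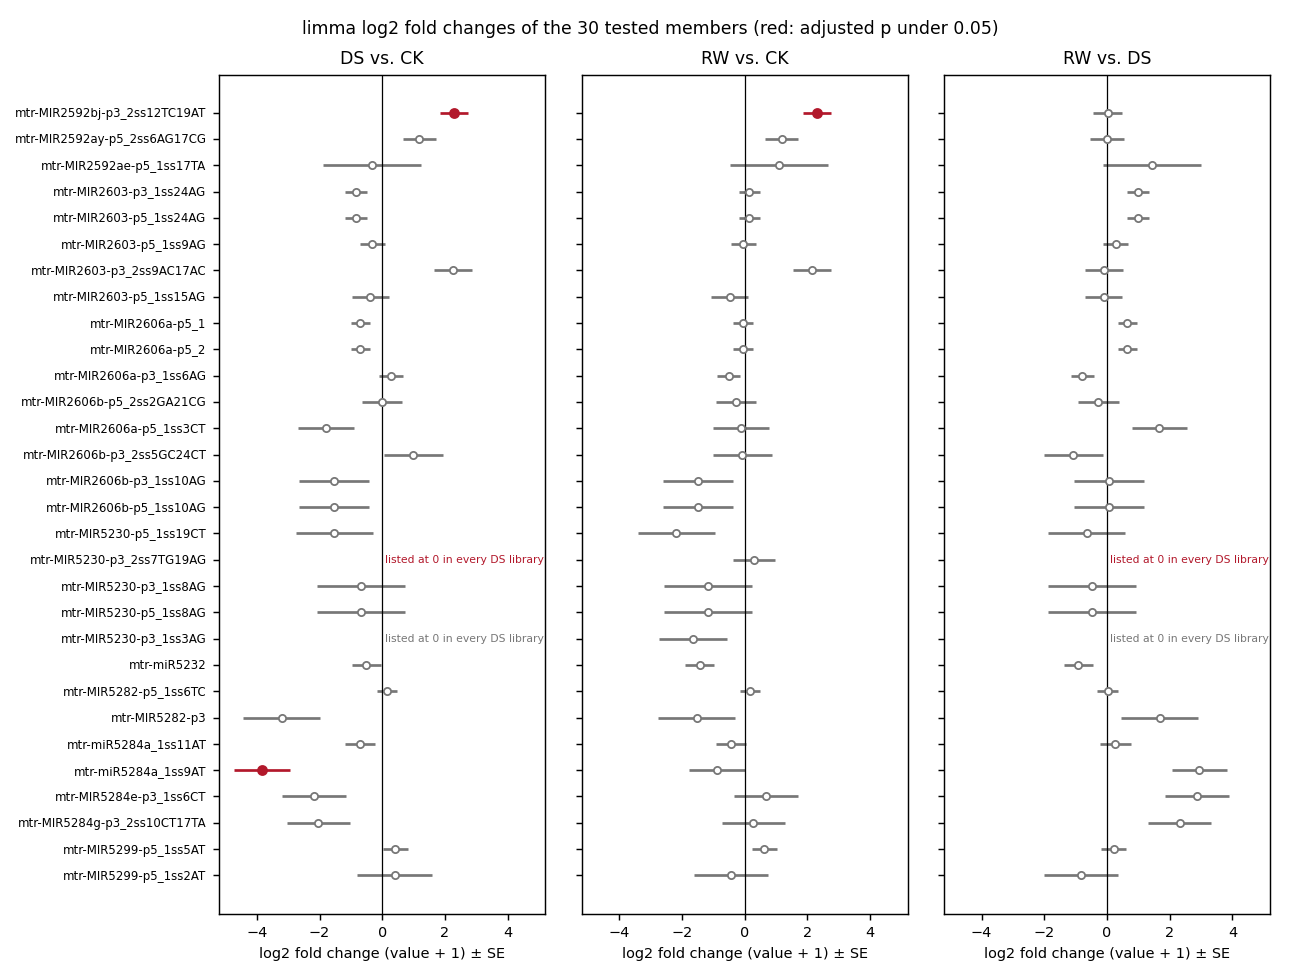
limma log2 fold changes on log2 (value + 1) with their SE (x axes) for the 30 tested members (rows) in DS vs. CK, RW vs. CK and RW vs. DS, with red for an adjusted p under 0.05. A member that a group lists at 0 in every library carries a note in place of a point, and red marks 3 members in the first comparison and 1 in each of the others.

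The miR2592 family was higher in both treated groups than in CK through its most abundant member. mtr-MIR2592bj-p3_2ss12TC19AT, a 19 nt arm, had 601, 921 and 648 normalized counts in the RW libraries, 519, 479 and 1385 in DS, and 93.4, 135 and 229 in CK. Every RW and DS library lay above every CK library, and the third DS library stood above all others. The log2 fold change was 2.31 in RW vs. CK (SE 0.45, limma adjusted p = 0.0151) and 2.29 in DS vs. CK (SE 0.45, limma adjusted p = 0.0144). Without the third DS library the DS vs. CK change was 1.80, with a limma adjusted p of 0.0336. The limma adjusted p for DS vs. CK was 0.0793 without the first and 0.0921 without the second CK library, 0.0527 with only DS and CK in the fit, and 0.0787 under upper-quartile scaling. The 2-group test of the methods, without adjustment, did not call this member in DS vs. CK. For RW vs. CK it was 0.0674 and 0.0519 without the second and the third RW library, and 0.0669 and 0.0598 without the first and second CK library.

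The other miR2592 members were much rarer. mtr-MIR2592ay-p5_2ss6AG17CG had 41.4, 22.4 and 18.5 in RW, 22.1, 21.9 and 35.7 in DS, and 6.78, 11.2 and 16.6 in CK. Again no RW or DS library was as low as any CK library, but the log2 fold change of 1.18 in RW vs. CK and in DS vs. CK (SE 0.53 each) did not pass (limma adjusted p = 0.317 and 0.254). mtr-MIR2592ae-p5_1ss17TA had 0, 23.4 and 18.5 in RW, 0, 0 and 23.2 in DS, and 0, 4.34 and 8.05 in CK, so the groups overlapped.

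A short member of miR2603 was also lowest in CK. mtr-MIR2603-p3_2ss9AC17AC, of 18 nt, had 36.4, 48.5 and 33.3 in RW, 37.8, 23.6 and 82.1 in DS, and 4.44, 6.51 and 17.4 in CK. All RW and DS libraries were above all CK libraries. Its log2 fold change was 2.13 in RW vs. CK (SE 0.61, limma adjusted p = 0.0702) and 2.24 in DS vs. CK (SE 0.61, limma adjusted p = 0.0578), which did not pass. It passed in DS vs. CK without the second DS library (limma adjusted p = 0.0454), with a pseudocount of 5 (0.0423), with a minimum of 20 (0.0402) and with low values raised to 4.21 (0.0372). In RW vs. CK it passed without the third DS library (limma adjusted p = 0.0469), with only RW and CK in the fit (0.0436), with a minimum of 20 (0.0421) and with low values raised (0.0407). The unadjusted methods' test called it in RW vs. CK and not in DS vs. CK.

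These 4 short members were the only ones of 18 or 19 nt. Their summed values were 679, 1015 and 718 in RW, 579, 524 and 1526 in DS, and 105, 157 and 271 in CK. In DS vs. CK and in RW vs. CK, 3 of the 4 were higher without overlap, beside 9.73% and 10.3% of all tested names. Of the 19 tested names of this length outside the families, 7 were higher without overlap in DS vs. CK and 6 in RW vs. CK, with median log2 fold changes of 1.30 and 1.21, beside 1.71 and 1.66 for the 4 members. The share of the fragment-like families was also higher in every RW and DS library than in CK (1.08 to 2.35% against 0.482 to 0.609%). The short members shared at most 5 consecutive bases with any sequence of the fragment-like families. Only the listed sequences of those families were compared, on the same strand, and no rRNA or tRNA reference was used. This overlap therefore does not bear on the origin of the short members. With those families left out and the remaining names scaled to their own total, an alternative chosen after seeing the data, mtr-MIR2592bj-p3_2ss12TC19AT had a log2 fold change of 2.31 in RW vs. CK and 2.30 in DS vs. CK (limma adjusted p = 0.0215 and 0.0264). The families left out held at most 2.35% of the listed values, so this scaling could change the fold changes only slightly, whatever the origin of the short members. Whether the short members are breakdown products of longer RNAs was not tested, nor was the part of RNA quality in their levels.

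**Figure D4:**
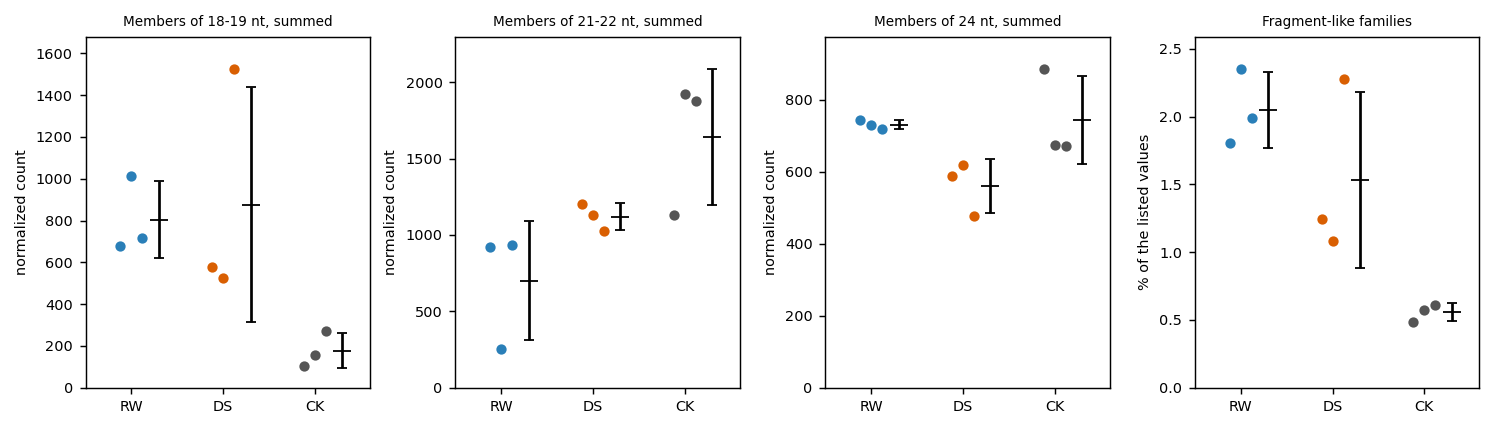
Summed normalized counts of the members of 18 to 19, 21 to 22 and 24 nt (first 3 panels) and the share of the fragment-like families (last panel, % of the listed values), with 1 point per library and the mean ± SD of 3 libraries beside the points. The short members are at 524 to 1526 in RW and DS and 105 to 271 in CK, and the fragment-like share is higher in RW and DS in the same way.

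The most abundant miR2603 sequence was lowest in DS. One 24 nt sequence carried the names mtr-MIR2603-p5_1ss24AG and mtr-MIR2603-p3_1ss24AG, and had 159, 198 and 117 in RW, 65.4, 78.4 and 91.0 in DS, and 181, 121 and 123 in CK. All DS libraries lay below all RW and all CK libraries. The log2 fold changes were -0.83 in DS vs. CK (SE 0.34, limma adjusted p = 0.213), 0.15 in RW vs. CK (SE 0.34, limma adjusted p = 0.888) and 0.99 in RW vs. DS (SE 0.34, limma adjusted p = 0.214), and none passed. Its opposite strand, mtr-MIR2603-p5_1ss15AG, was rarer, at 9.665, 6.40 and 12.3 in RW, 13.4, 10.1 and 7.14 in DS, and 18.5, 16.7 and 7.295 in CK. The ratio of the first strand to the second was 16.5, 31.0 and 9.50 in RW, 4.88, 7.75 and 12.8 in DS, and 9.76, 7.20 and 16.9 in CK, so the groups overlapped. The other members of miR2603 were 1 tested name with overlapping groups in each comparison and 2 untested names of at most 5.55.

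In miR2606, which had the most names, none of the 8 tested members passed limma in any comparison. At an unadjusted limma p under 0.05 there were 2 in DS vs. CK (beside 19.5% of all tested names) and 0 in each of the others. These 2 have identical values in all libraries and are 1 measurement. The methods' test called 2 in DS vs. CK, 1 in RW vs. CK and 2 in RW vs. DS (beside 5.55%, 6.72% and 3.53% of all names), or 1 in each with identical values counted once. mtr-MIR2606a-p5_1 had 177, 132 and 144 in RW, 101, 111 and 76.8 in DS, and 162, 132 and 174 in CK. The DS libraries were below all others. limma gave a log2 fold change of -0.70 in DS vs. CK (SE 0.31, limma adjusted p = 0.238) and 0.65 in RW vs. DS (SE 0.31, limma adjusted p = 0.352). mtr-MIR2606a-p5_2, with a different sequence, was listed with the same value in all 9 libraries and is not a second measurement. Which of the 2 sequences these values belong to cannot be told from the table. mtr-MIR2606a-p3_1ss6AG, the opposite strand of mtr-MIR2606a-p5_1 but sharing 18 bases of the same strand with mtr-MIR2606a-p5_2, had 46.9, 66.1 and 99.95 in RW, 151, 111 and 96.4 in DS, and 102, 112 and 80.0 in CK, and its groups overlapped in each comparison. mtr-MIR2606b-p3_1ss4AT, not tested, had 2.30, 3.20 and 3.09 in RW, 3.94, 5.90 and 0 in DS, and 1.83, 0 and 0 in CK, close to the lowest values that these libraries list. The summed level of the family was 265 ± 12.5 in RW, 252 ± 54.0 in DS and 298 ± 9.57 in CK (SD, n = 3 each), counting names of identical values once.

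The miR5230 family held the one member that passed in both comparisons with DS. mtr-MIR5230-p3_2ss7TG19AG, of 21 nt, had 9.205, 12.8 and 9.87 in RW, was listed at 0 in all DS libraries, and had 6.26, 11.2 and 8.55 in CK. The RW and CK values overlapped, and all of them lay above 4.21, the highest of the smallest values listed by the DS libraries. The limma adjusted p was 0.0158 in DS vs. CK and 0.0175 in RW vs. DS, and no fold is given against a group at 0. Without the first, the second or the third CK library the limma adjusted p in DS vs. CK was 0.0793, 0.0975 or 0.0843, and without the first, the second or the third RW library that in RW vs. DS was 0.0561, 0.0788 or 0.0568. With every lower value raised to 4.21 it was 0.247 in DS vs. CK and 0.235 in RW vs. DS, and with only RW and DS in the fit it was 0.1003.

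Of the remaining miR5230 members, mtr-MIR5230-p5_1ss19CT was above 0 in 7 libraries and the others in at most 4. mtr-MIR5230-p3_1ss3AG had 12.9, 0 and 0 in RW, 0 in every DS library, and 5.74, 6.82 and 7.04 in CK, with a limma adjusted p of 0.179 in DS vs. CK. mtr-MIR5230-p5_1ss19CT had 11.05, 0 and 7.40 in RW, 18.9, 18.5 and 0 in DS, and 16.7, 22.3 and 21.6 in CK. For it, RW lay below CK in all libraries, and the third DS library was at 0, unlike the other DS libraries. Its log2 fold change of -2.18 in RW vs. CK (SE 1.23, limma adjusted p = 0.470) did not pass. The family sum was 22.9 ± 13.8 in RW, 20.99 ± 18.6 in DS and 40.8 ± 7.08 in CK (SD, n = 3 each), and the third DS library listed all 7 names at 0.

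mtr-miR5232, a 21 nt mature miRNA and the only name of its family, was the most abundant member. It had 880.0, 239.8 and 917 in RW, 1176, 1095 and 1025 in DS, and 1095, 1885 and 1825 in CK. Every RW library lay below every DS and every CK library, and the second RW library stood well below the others. The log2 fold change was -1.43 in RW vs. CK (SE 0.46, limma adjusted p = 0.122), -0.92 in RW vs. DS (SE 0.46, limma adjusted p = 0.368) and -0.50 in DS vs. CK (SE 0.46, limma adjusted p = 0.553), and none passed. Without the second RW library the change in RW vs. CK was -0.79 (limma adjusted p = 0.262).

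The miR5282 members stood at different levels, and neither passed in any comparison. mtr-MIR5282-p5_1ss6TC had 89.3, 87.4 and 96.3 in RW, 86.7, 94.4 and 87.5 in DS, and 105, 62.0 and 80.0 in CK, with the widest spread within CK. Its log2 fold change was 0.17 in RW vs. CK and 0.15 in DS vs. CK (SE 0.33 each, limma adjusted p = 0.854 and 0.815). mtr-MIR5282-p3, on the same assembled transcript, had 20.3, 0 and 13.6 in RW, 0, 8.43 and 0 in DS, and 21.9, 21.7 and 13.1 in CK. All DS libraries were below all CK libraries, but the log2 fold change of -3.20 in DS vs. CK (SE 1.23) did not pass (limma adjusted p = 0.188).

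In miR5284, a 24 nt mature form fell in DS. mtr-miR5284a_1ss9AT had 23.01, 13.9 and 12.3 in RW, 9.46, 0 and 0 in DS, and 41.7, 25.4 and 25.7 in CK. No group overlapped another, with CK highest and DS lowest. The log2 fold change was -3.83 in DS vs. CK (SE 0.88, limma adjusted p = 0.0282), 2.94 in RW vs. DS (SE 0.88, limma adjusted p = 0.143) and -0.89 in RW vs. CK (SE 0.88, limma adjusted p = 0.727). With zeros in DS the size depends on the pseudocount, and the DS vs. CK change was -6.04 with 0.1 (limma adjusted p = 0.0731) and -2.30 with 5 (limma adjusted p = 0.0151). The limma adjusted p in DS vs. CK was 0.0569 or 0.0585 without the first or the third RW library, 0.0685 or 0.0803 without the second or the third DS library, and 0.140, 0.0933 or 0.0795 without the first, the second or the third CK library. With only DS and CK in the fit it was 0.0783. Without the first DS library, the only one above 0, that in RW vs. DS was 0.00731.

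mtr-miR5284a_1ss11AT, with the same seed, did not pass in any comparison. It had 32.2, 23.98 and 19.1 in RW, 22.9, 28.65 and 12.5 in DS, and 44.6, 30.7 and 27.7 in CK, and the groups overlapped. Its change in DS vs. CK was -0.71 on the log2 scale (SE 0.48, limma adjusted p = 0.441). The family sum was 71.2 ± 21.99 in RW, 33.5 ± 21.6 in DS and 86.2 ± 23.8 in CK (SD, n = 3 each).

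The miR5299 windows were led by mtr-MIR5299-p5_1ss5AT, with 41.9, 33.6 and 57.4 in RW, 37.1, 38.8 and 35.7 in DS, and 32.4, 29.8 and 22.1 in CK. Every RW and DS library was above every CK library. The log2 fold change of 0.62 in RW vs. CK and 0.41 in DS vs. CK (SE 0.40 each) did not pass (limma adjusted p = 0.549 and 0.581). mtr-MIR5299-p5_1ss2AT had 5.98, 0 and 0 in RW, 5.52, 5.06 and 0 in DS, and 2.09, 4.65 and 0 in CK. mtr-miR5299_L+1R-1, not tested, had 5.06, 5.86 and 4.94 in RW, 0 in all DS libraries, and 3.13, 0 and 2.77 in CK, and its CK values lay below what the DS libraries list at all.

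**Figure D5:**
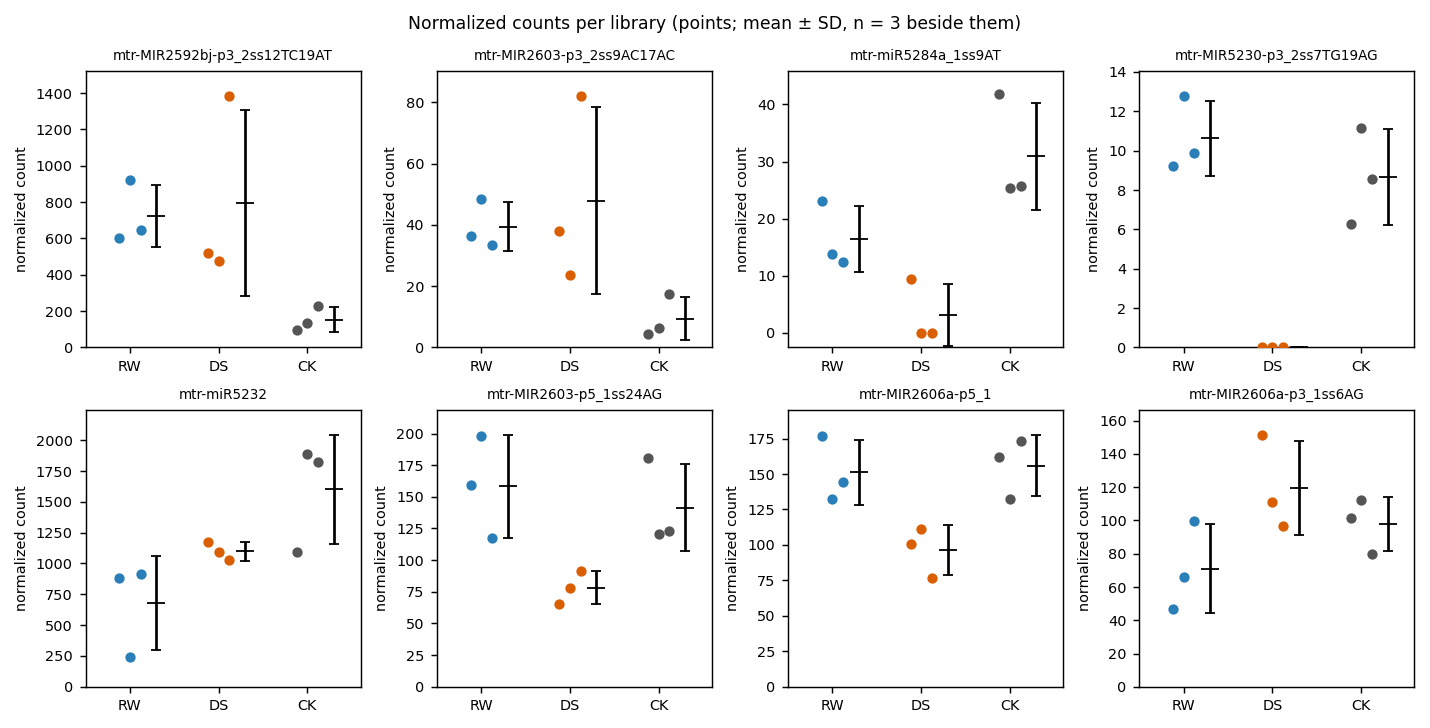
Normalized counts (y axes, linear, each panel with its own scale) of 8 members in the 3 libraries of RW (blue), DS (orange) and CK (grey), with the mean ± SD beside the points. mtr-MIR2592bj-p3_2ss12TC19AT and mtr-MIR2603-p3_2ss9AC17AC are lowest in CK, mtr-miR5284a_1ss9AT and mtr-MIR5230-p3_2ss7TG19AG are lowest in DS, and mtr-miR5232 is lowest in RW.

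By length, the 24 nt members were lowest in DS. Their summed values were 743, 730.1 and 719 in RW, 589.7, 619 and 477 in DS, and 887, 674 and 673 in CK, and the DS libraries lay below all others. In DS vs. CK, 7 of the 20 tested 24 nt members were lower without overlap, beside 17 of 114 other tested names of that length and 18.3% of all tested names. With names of identical values counted once, this was 5 of 17 members and 13 of 96 others. Their median log2 fold change was -0.70, beside -0.71 for the other 24 nt names. The members of 21 and 22 nt summed to 919, 253 and 934 in RW, 1204, 1131 and 1025 in DS, and 1131, 1925 and 1873 in CK, of which mtr-miR5232 made up most. The 20 members not named here, 11 of them tested, had values of 0 to 151, and none passed limma in any comparison, with 0, 0 and 2 in DS vs. CK, RW vs. CK and RW vs. DS at an unadjusted p under 0.05 and none by the methods' test.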

How the data were processed

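Leaf small RNA libraries (TruSeq, HiSeq 2500) were processed by the authors with ACGT101-miR, version not given in the sources used here. Reads of 18 to 25 nt were matched to miRBase 22.0 precursors and to assembled transcripts. The deposited values are a signal, normalized counts that the authors made by multiplying the reads of each library by 1 factor. How it was chosen is not given. Repeated lines (667 lines, 595 names) were used once, and 0 columns of other samples were present. Groups came from the labels, with 3 libraries each. A count-based test had been planned for the case that whole reads could be recovered. They were not recovered here, because values below a floor that differs between libraries are listed at 0, so counting intervals are not given. limma 3.58.1 (R 4.3.3, mean-variance trend) was fitted to log2 (value + 1) in 1 fit of 3 groups, for names of at least 5 in at least 3 libraries, adjusted by Benjamini-Hochberg within each comparison. It was tried on simulated data, drawn as normal log2 values without the listing floor of the libraries. That trial therefore does not cover members listed at 0. Named members are those that passed, the 2 most abundant of each family, and those the study lists. Fold changes enter the alternatives only where a named member had an unadjusted p under 0.05. Members and lists were chosen with earlier results of these data known. Figures were drawn with matplotlib 3.10.9 (Python 3.11.15, pandas 2.3.3).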

Additional observations from a re-analysis of the deposited data

How the results depend on the processing

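The planned count-based test on recovered reads was not run. Under upper-quartile scaling, which moved the median log2 fold change of all names to -1.74 in DS vs. CK, -0.92 in RW vs. CK and 0.76 in RW vs. DS (from -0.36, -0.11 and 0.16), the changed members numbered 16, 2 and 3, against 3, 1 and 1 as deposited. Over all names, 175, 51 and 16 passed under this scaling, against 18, 18 and 8 as deposited. All 16 changed members in DS vs. CK were lower, and mtr-MIR2592ay-p5_2ss6AG17CG turned to -0.18 there. Relative to that shift it was still higher. The numbers of changed members were 1, 2 and 0 with only the 2 groups compared and 11, 4 and 6 at an unadjusted p. They were 6, 4 and 5 by a 2-group test after the study's methods, run here with unequal variances over all 41 names. Over all names, these settings gave 11, 23 and 0, then 66, 53 and 48, and then 33, 40 and 21. A minimum of 20 gave 2 members in RW vs. CK and 0 in RW vs. DS, beside 22 and 4 of all names. Raising low values to a common level gave the same numbers of members, beside 29 and 6 of all names. Leaving out 1 library at a time gave 0 to 5 members in DS vs. CK, 0 to 2 in RW vs. CK and 0 to 3 in RW vs. DS. Over all names it gave 0 to 23, 5 to 22 and 0 to 14. Replicate numbers did not pair the samples (correlations of -0.154 to 0.0579 between deviations of same-numbered libraries, none of 9 over 0.1), and a replicate block gave 3, 1 and 1 and, over all names, 17, 18 and 7. With the miR166 names left out of the total, and again every member name counted, the members held 0.477% in RW, 0.450% in DS and 0.487% in CK. Of 453 alternative values of 19 fold changes, 387 kept their direction and side of the threshold, 38 newly passed, 27 no longer passed and 1 reversed. The 19 were chosen by an unadjusted limma p under 0.05, and that p was itself an alternative. Part of the 38 was therefore fixed in advance. Names of identical values count more than once among the 19, so these numbers only describe the alternatives. The causes were not tested. The lowest listed values, highest in DS, limit what can be read from members listed at 0.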
